A study of Mus musculus with 12 samples.

Results

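The 10 genes described here encode a glucose transporter and 9 enzymes of the path from glucose to lactate. They are, in pathway order, Slc2a1, Hk2, Pfkl, Aldoa, Tpi1, Gapdh, Pgk1, Pgam1, Eno1 and Ldha. They were taken by symbol from both deposited expression tables, which hold 23235 entries for fetal liver and 24421 for fibroblasts, and all 10 symbols were found in each. The study compared wild-type mice (WT) with mice labelled G2A, homozygous for the allele Rpt2G2A/G2A. Rpt2, encoded by Psmc1, is an ATPase subunit of the proteasome, and the allele replaces the glycine that follows its start methionine, the site of a lipid anchor, by alanine. One part of the study used whole livers of E12.5 embryos (E, embryonic day), 3 WT and 3 G2A, which the submitters describe as littermates. The other used immortalized mouse embryonic fibroblasts (MEFs), 3 WT and 3 G2A samples, of which the expression table gave 5 libraries that could be matched to a label. G2A MEF 3 was not analysed here. Neither liver nor MEFs were treated, and the labels do not say whether the MEFs came from separate embryos, lines or cultures, so p-values in MEFs measure the spread between these libraries only.

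Glycolysis splits glucose into pyruvate with a net gain of ATP, and lactate dehydrogenase turns the pyruvate into lactate, which restores the NAD+ that the path needs. Slc2a1 is the GLUT1 carrier that brings glucose into the cell. Hk2, a hexokinase, adds a phosphate to it, and Pfkl, the liver-type phosphofructokinase, catalyses the main regulated step. Aldoa, an aldolase, splits the sugar and Tpi1 interconverts both products of the split; Gapdh and Pgk1 then carry out the oxidation and an ATP-forming step. Pgam1 and Eno1 convert the product to phosphoenolpyruvate, and Ldha makes lactate. The fetal liver at this age is a site of red cell formation as well as the home of the hepatoblasts, the precursors of hepatocytes. Glycolysis genes are textbook targets of the hypoxia-inducible factor HIF-1 and of Myc. HIF-1 binds a short core that includes ACGTG, and Myc binds the palindrome CACGTG.

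The promoter sequences of the genes are shown because most of the members differed between the groups in the same direction in liver. All 10 genes had at least 1 RefSeq window (GRCm38.p6) of 300 bases, 250 before and 50 after an annotated start, and 15 windows in all. ACGTG was searched on both strands, so that a palindromic CACGTG counts once on each strand. A match was present in a window of 7 of the 10 genes, against 21.8% of 27025 genes with a window. By windows the counts were 8 of 15 (53.3%) against 19.6% of all 32851 windows. Among 13319 windows with a G+C content within the members' range (52.7% to 69.0%) the share was 24.4%. The window of Ldha at its upstream start held 5 matches, 4 of them from a pair of CACGTG palindromes, and the windows of Pgk1 and Hk2 held 2 each. Slc2a1, Gapdh and Pgam1 had 1 match, Aldoa had 1 in 2 of its 3 windows, and Pfkl, Tpi1 and the 3 windows of Eno1 had 0. These are matches of letters, not measured binding sites. The 250 bases before the start are printed below for 4 genes, 5′ to 3′ on the gene's own strand, with ACGTG or its reverse complement CACGT in capitals: Pgk1 and Aldoa because their log2 fold changes in liver were the largest of the members, Ldha because it holds the most matches, and Tpi1 as a window with 0.
Pgk1, chrX:106186850-106187099 (plus strand): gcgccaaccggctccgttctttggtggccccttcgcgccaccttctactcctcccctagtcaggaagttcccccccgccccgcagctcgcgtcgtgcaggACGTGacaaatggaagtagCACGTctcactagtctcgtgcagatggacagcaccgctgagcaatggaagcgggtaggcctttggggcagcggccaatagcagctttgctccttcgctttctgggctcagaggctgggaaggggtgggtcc
Aldoa, chr7:126799179-126799428 (minus strand): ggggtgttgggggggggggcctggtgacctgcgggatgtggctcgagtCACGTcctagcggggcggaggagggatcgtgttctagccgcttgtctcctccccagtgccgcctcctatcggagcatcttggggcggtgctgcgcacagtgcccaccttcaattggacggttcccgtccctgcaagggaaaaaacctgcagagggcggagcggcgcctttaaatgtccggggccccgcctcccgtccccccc
Ldha, chr7:46845554-46845803 (plus strand): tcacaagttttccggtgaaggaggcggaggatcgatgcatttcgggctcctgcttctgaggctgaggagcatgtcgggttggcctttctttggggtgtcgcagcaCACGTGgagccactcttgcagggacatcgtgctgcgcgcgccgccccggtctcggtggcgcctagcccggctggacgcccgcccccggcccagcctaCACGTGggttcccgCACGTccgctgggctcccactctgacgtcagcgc
Tpi1, chr6:124814159-124814408 (minus strand): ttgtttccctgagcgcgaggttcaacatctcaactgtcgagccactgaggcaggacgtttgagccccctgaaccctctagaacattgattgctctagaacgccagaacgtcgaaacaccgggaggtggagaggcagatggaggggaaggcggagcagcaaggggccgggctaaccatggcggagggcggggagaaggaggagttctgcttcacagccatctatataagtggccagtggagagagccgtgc

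Some libraries stood apart in ways that touch the members. In liver, G2A 3 differed from the other G2A livers over all genes tested: leaving it out raised the number of genes higher in G2A at an adjusted p under 0.05 from 2 to 1604 of 12938. The members' fold changes in liver are therefore given with and without it. In MEFs, WT 3 went against its group. Its normalized reads for Xist, the RNA of the inactive X chromosome, were 38335, against 2.06 and 0 in WT 1 and WT 2 and 9705 and 13311 in the G2A libraries. Ddx3y, on the Y chromosome, was at 0 in WT 3, at 3075 and 2554 in WT 1 and WT 2 and at 23.7 and 0 in G2A 1 and G2A 2. Across genes, the correlation of WT 3 with the G2A libraries (r = 0.953 and 0.958) was above that with WT 1 and WT 2 (0.890 and 0.882), where genes are not independent replicates. The MEF libraries held between 36415586 and 37695116 reads assigned to genes. The liver values are FPKM (fragments per kilobase of gene, scaled to the mapped fragments of the library), with an unknown number of reads behind them. Psmc1 does not check the genotype, since a codon change cannot be seen in a gene's level. It stood at 178, 181 and 178 FPKM in WT livers and 151, 145 and 161 in G2A livers (adjusted p = 0.114), and at 7393, 8589 and 6485 against 10658 and 10913 normalized reads in MEFs (adjusted p = 0.282). As to tissue, all 10 hepatoblast markers and all 11 erythroid markers in the liver table were above 0 there. In MEFs, 4 of 12 erythroid markers (Slc4a1, Epb4.2, Gata1 and Hbb-b1) were at 0 in every library. The list still summed to between 4027 and 5455 normalized reads, with Tfrc at 3426 to 4899. Of the hepatoblast markers, Alb was at 305, 330 and 0 in WT MEFs and at 275 and 0 in G2A. The mesenchyme markers summed to between 367295 and 965154 normalized reads.

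In liver, the 3 G2A libraries lay above the 3 WT libraries without overlap for 8 of the 10 genes, Slc2a1 and Pfkl being the exceptions. The same held for 11.8% of the 12938 genes tested. No member passed the test over all genes (limma's moderated test on log2(FPKM + 1), adjusted p under 0.05), a threshold that 0.0155% of genes passed in the higher direction. At an unadjusted p under 0.05, 8 of 10 members were higher and 0 lower, against 9.07% of all genes higher. The log2 fold change (G2A minus WT) was above 0 for 10 of 10 members and for 52.7% of genes, and its median was 0.44 over the members and 0.01 over all genes, whose 10th and 90th percentiles were -0.27 and 0.33. Without G2A 3, 5 of the 10 passed the adjusted threshold as higher, namely Hk2, Aldoa, Pgk1, Pgam1 and Eno1, when 12.4% of all genes did so, and the median stayed at 0.44, with 9 of 10 above 0, Slc2a1 being the exception. In bulk tissue, a change in the number of cells of a type and a change in RNA per cell cannot be told apart.

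**Figure D1:**
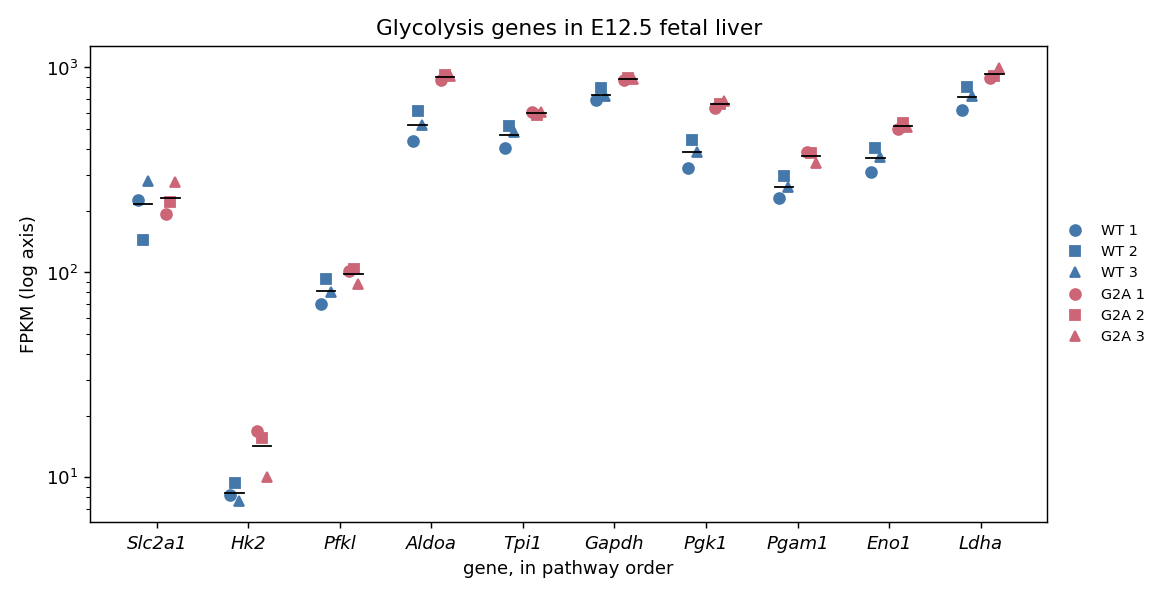
FPKM of the 10 genes in each fetal liver library on a log axis, in pathway order, with WT in blue, G2A in red, a symbol for each library number and a line at each group mean (n = 3). The G2A points lie above the WT points for 8 genes, and the groups overlap for Slc2a1 and Pfkl.

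The transporter did not share the pattern of the enzymes. Slc2a1 (chr4:118781316-118809935 of NCBIM37, plus strand, protein coding) measured 226, 144 and 280.3 FPKM in WT 1, WT 2 and WT 3 and 193, 220.5 and 278 in G2A 1, G2A 2 and G2A 3, the order kept for all genes below. The groups overlapped throughout, with the lowest and the highest value both in WT. Its means were 217 ± 68.6 and 230 ± 43.1 (SD, n = 3 each), giving a log2 fold change of 0.12 (SE 0.26, adjusted p = 0.803), whose 95% interval ran from -0.50 to 0.75. The interval includes changes of either sign, so these values give no direction for Slc2a1. Without G2A 3 the log2 fold change of Slc2a1 was -0.019 (adjusted p = 0.963).

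Of the 2 enzymes that phosphorylate the sugar, Hk2 was the least abundant member. Hk2 (chr6:82675019-82724448, minus strand) was at 8.17, 9.41 and 7.71 FPKM in WT and 16.8, 15.6 and 10.1 in G2A. All 3 G2A livers were above all WT livers, but G2A 3 was much nearer to them than the other pair. This gave a log2 fold change of 0.66 (SE 0.19, adjusted p = 0.140), or 0.87 without G2A 3 (adjusted p = 0.00997). Pfkl (chr10:77449692-77472828, minus strand) had 70.0, 93.0 and 80.5 FPKM in WT and 101, 104 and 88.2 in G2A. Here G2A 3 fell below WT 2, and the log2 fold change of 0.27 (SE 0.12) had an adjusted p of 0.247, or 0.35 and 0.0785 without G2A 3.

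Aldoa and Pgk1 had the largest differences. Aldoa (chr7:133938748-133944265, minus strand) measured 438, 616 and 522 FPKM in WT and 870.3, 917 and 910.3 in G2A. The lowest G2A liver was well above the highest WT liver. Its mean went from 525 ± 89.4 to 899 ± 25.4 (SD, n = 3 each), a log2 fold change of 0.79 (SE 0.12, adjusted p = 0.0902; 0.0191 without G2A 3). Pgk1 (chrX:103382439-103399038, plus strand) measured 323, 444 and 389 FPKM in WT and 632, 666 and 690.1 in G2A. G2A 3, which was low for Hk2, was the highest liver for Pgk1, and leaving it out gave a log2 fold change of 0.76 (adjusted p = 0.0176) in place of 0.79 (0.0902). Pgk1 lies on the X chromosome, and the Xist levels were 0.117, 52.2 and 48.3 FPKM in the WT livers and 0.192, 61.9 and 0.186 in the G2A livers. The G2A livers with low Xist had 632 and 690.1 FPKM of Pgk1 and the G2A liver with high Xist had 666. In WT the liver with low Xist had 323 and those with high Xist had 444 and 389.

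Of the enzymes between them, Tpi1 (chr6:124760604-124764314, minus strand) gave 404, 517 and 485 FPKM in WT livers, compared with 607, 588 and 606 in G2A. The G2A livers were close together, at 600.3 ± 10.4 against 469 ± 58.3 in WT (SD, n = 3 each), and the log2 fold change was 0.36 (adjusted p = 0.130; 0.0636 without G2A 3). Gapdh (chr6:125111871-125116485, minus strand) gave 692, 795 and 727 FPKM in WT livers, compared with 870.1, 886 and 875 in G2A. This was the smallest of the 8 differences without overlap: a log2 fold change of 0.25 (SE 0.07, adjusted p = 0.132; 0.0573 without G2A 3), or 18.8% more by group means.

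Both enzymes that follow Pgk1 gave similar values. Pgam1 (chr19:41986361-41993154, plus strand) gave 231, 294 and 262 FPKM in WT livers, compared with 386, 384 and 343 in G2A. Eno1 (chr4:149610830-149622988, plus strand) gave 310.5, 405 and 366 FPKM in WT livers, compared with 504, 534 and 511 in G2A. In each case every G2A liver exceeded every WT liver, with log2 fold changes of 0.50 for Pgam1 (adjusted p = 0.0994; 0.0195 without G2A 3) and 0.52 for Eno1 (0.0953; 0.0277 without G2A 3). Ldha, the last enzyme (chr7:54096845-54110997, plus strand), gave 619.7, 803 and 726 FPKM in WT livers, compared with 889, 909 and 999 in G2A. Its groups did not overlap either, at a log2 fold change of 0.39 (SE 0.11, adjusted p = 0.135). Without G2A 3 these became 0.34 and 0.0785.

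Summed over the 10 genes, the members took 0.419%, 0.513% and 0.472% of all FPKM in the WT livers and 0.629%, 0.621% and 0.669% in the G2A livers. Within WT the members moved together: liver WT 1 was the lowest of the WT livers for 8 of the 10 genes and WT 2 the highest for 9. The order WT 1, WT 3, WT 2 was found for 8 of 10 members and 18.8% of all genes tested. The median deviation of the members from the WT mean, on the log2 scale, was -0.20, 0.17 and 0.02 in WT 1 to WT 3 and 0.43, 0.46 and 0.40 in G2A 1 to G2A 3. G2A 3, which stood apart over all genes, was thus close to the other G2A livers in this median, while it was the lowest G2A liver for Hk2, Pfkl and Pgam1 and the highest for Slc2a1, Pgk1 and Ldha.

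**Figure D2:**
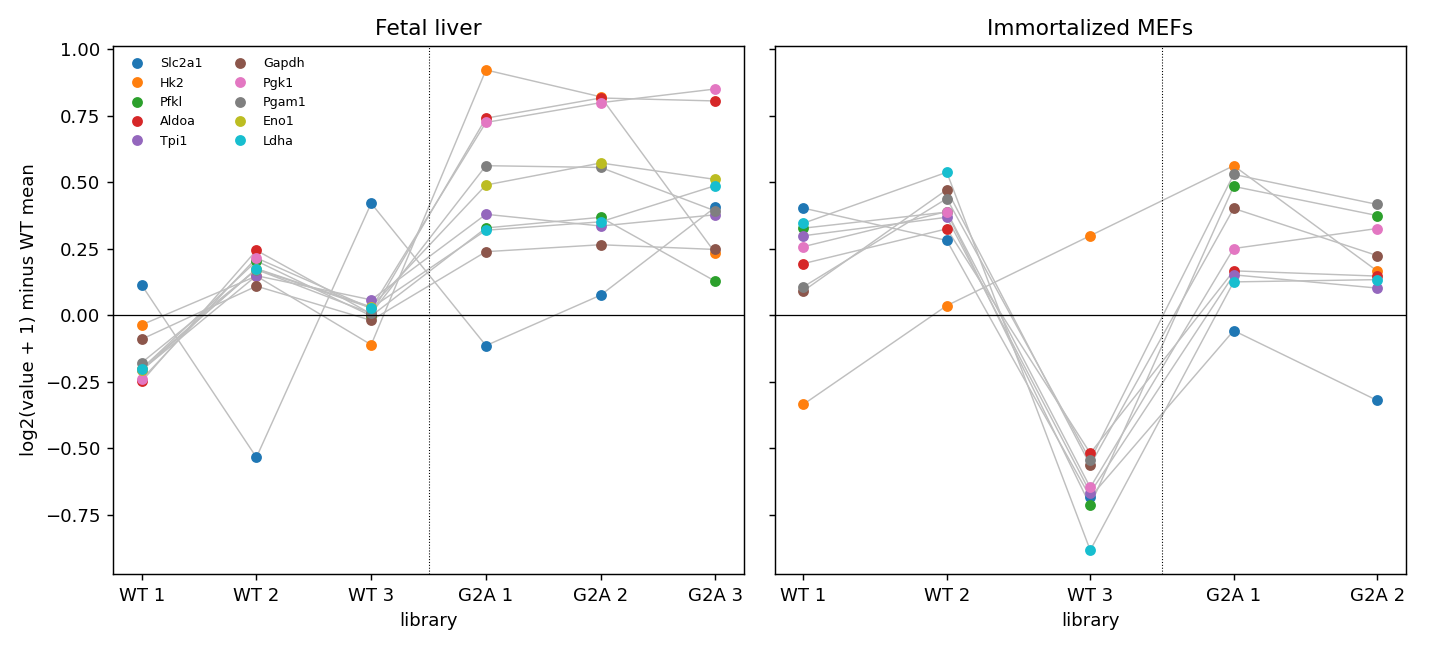
Deviation of each gene from its WT mean, log2(value + 1), in every liver library (left) and every MEF library (right), with a grey line joining the points of a gene. In liver the 3 G2A libraries lie above 0 except for Slc2a1 in G2A 1, and in MEFs WT 3 is the lowest library for 8 of 9 genes.

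The order of the levels differed between the groups. FPKM is per length, but sequence shared with copies elsewhere in the genome also bears on levels compared between genes. Such sequence covers 92.9% of the 50-base stretches of Pgk1, 91.9% of Pgam1, 78.7% of Gapdh and 49.5% of Eno1, as described below, so their ranks are uncertain. In WT livers the means ran Gapdh, Ldha, Aldoa, Tpi1, Pgk1, Eno1, Pgam1, Slc2a1, Pfkl and Hk2 from highest to lowest. Gapdh was above Aldoa in 3 of 3 WT livers and in 0 of 3 G2A livers. Tpi1 was above Pgk1 in 3 of 3 WT livers and in 0 of 3 G2A livers. Gapdh and Ldha, the pair at the top, did not keep 1 order within WT (Gapdh above Ldha in 2 of 3), and neither did Pgam1 and Slc2a1 (2 of 3). In G2A livers Ldha was above Aldoa in 2 of 3. The steps from Pgk1 to Eno1, from Eno1 to Pgam1, from Slc2a1 to Pfkl and from Pfkl to Hk2 kept their order in all 6 livers.

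Where an enzyme has isozymes, the shares of the members could be read within each liver. Hk2 made up 11.3%, 10.5% and 9.13% of the summed FPKM of Hk1 and Hk2 in WT and 24%, 24.2% and 11.5% in G2A. The groups did not overlap, and G2A 3 was nearly at the WT level. Hk1, the widely expressed hexokinase, was at 73.7 ± 8.36 and 59.8 ± 15.2 FPKM (SD, n = 3 each; log2 fold change -0.32, adjusted p = 0.351). Pfkp, the platelet-type phosphofructokinase, had 5.81, 7.69 and 6.24 FPKM in WT and 12.3, 14.3 and 12.9 in G2A. Its share of Pfkl, Pfkm and Pfkp was 5.86% ± 0.170 in WT and 9.85% ± 0.871 in G2A (SD, n = 3 each), while Pfkm, the muscle type, had means of 24.3 and 23.2 FPKM. The log2 fold change of Pfkp was 0.91 (SE 0.11, adjusted p = 0.0847), above that of any of the 10 members.

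Aldoc, the brain-type aldolase, was at 5.12, 6.15 and 6.43 FPKM in WT and 10.4, 12 and 10.7 in G2A, without overlap (0.80, adjusted p = 0.0902), a far lower level than that of Aldoa. Ldha held 91.9% ± 2.67 of Ldha and Ldhb in WT and 93.0% ± 2.40 in G2A, and Eno1 held 97.5% and 97.7% of the enolases, both with overlap. Ldhb, the heart-type subunit, was at 61.5 and 70.1 FPKM by means. Pgam2, Eno2 and Eno3, muscle and neuronal forms, had means from 0.963 to 8.08 FPKM in WT and from 1.70 to 10.5 in G2A, and a mean of Pgam2 of 6.52 in G2A came mostly from 16.1 in G2A 1.

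The gaps between the members are filled by an isomerase and by pyruvate kinase, which has a pair of genes. Gpi1, which isomerises glucose phosphate before Pfkl, was at 160.4, 216 and 182 FPKM in WT and 280.2, 287 and 280.5 in G2A (log2 fold change 0.61, adjusted p = 0.0902). Pkm2, the symbol in the liver table for the pyruvate kinase Pkm, was at 317, 359 and 303 in WT and 511, 536 and 428 in G2A (0.59, adjusted p = 0.0914). Both were without overlap. Pklr, the liver and red cell pyruvate kinase, had the other sign: it was at 244, 277 and 302 in WT and 165, 151 and 249 in G2A, with G2A 3 above WT 1 (-0.57, adjusted p = 0.175). Of the 16 other glycolysis genes tested, 5 were higher in G2A without overlap and 0 lower, against 11.8% and 15.7% of all genes. Of these 16 genes, 10 were above 0, and their median log2 fold change was 0.26. None passed the adjusted threshold. Without G2A 3, 6 were called higher and 3 lower, against 12.4% and 12.0% of all genes.

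Among the other glucose and lactate carriers, Slc2a3 (GLUT3) was at 19.3, 22.3 and 22.5 FPKM in WT and 54.7, 73.1 and 42.3 in G2A. This was the largest log2 fold change among the genes of these lists that are named for liver, 1.33 (SE 0.19, adjusted p = 0.0902). It made up 9.56% ± 3.32 of the summed Slc2a1 and Slc2a3 in WT and 20.1% ± 6.10 in G2A (SD, n = 3 each), with overlap between WT 2 and G2A 3. Slc16a3 (MCT4), an exporter of lactate, was at 45.7, 77.5 and 57.1 against 108, 115 and 105 FPKM (0.88, adjusted p = 0.101). The list held 9 tested genes, 5 of them above 0, with a median of 0.05. Of the 9, 2 were higher without overlap, against 11.8% of all genes.

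Regulators and side branches gave mixed values. Pfkfb3, which makes the activator of phosphofructokinase, was at 9.04, 8.47 and 9.90 FPKM in WT and 16.4, 16.4 and 13.0 in G2A (0.67, adjusted p = 0.0902), and Hkdc1, a hexokinase-like enzyme, was at 3.91, 4.32 and 4.65 against 3.23, 2.97 and 3.04 (-0.37, adjusted p = 0.120). In all, 8 of 11 tested regulators were above 0, 2 were higher without overlap and 1 lower, against 11.8% and 15.7% of all genes. Of 9 glycogen genes 8 were above 0 and 2 higher without overlap. Gbe1, the branching enzyme, was at 4.72, 4.82 and 4.92 FPKM in WT and 7.85, 7.71 and 6.89 in G2A (0.54, adjusted p = 0.0902), and Gys1, a glycogen synthase, overlapped between the groups (0.59, adjusted p = 0.229). Of 4 gluconeogenesis genes tested, 1 was higher without overlap, Pck2 (0.32, adjusted p = 0.145), and Pcx had -0.38 (adjusted p = 0.306).

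The mitochondrial path that follows glycolysis, and most of the pentose phosphate path, had log2 fold changes of the other sign. All 23 genes of pyruvate entry into mitochondria and the tricarboxylic acid (TCA) cycle were below 0 in G2A liver, with a median of -0.19, and 17 of 23 were lower without overlap, against 15.7% of all genes. None passed the adjusted threshold; 14 had an unadjusted p under 0.05. Without G2A 3, 10 of 23 were called lower, against 12.0% of all genes, and 0 higher. Fh1, fumarase, was at 92.4, 95.6 and 96.2 FPKM in WT and 79.5, 75.8 and 82.8 in G2A (-0.25, SE 0.05, adjusted p = 0.103). Mdh2, the mitochondrial malate dehydrogenase, was at 291, 311 and 308 against 252, 233 and 266 (-0.28, adjusted p = 0.115). In the pentose phosphate path 6 of 8 genes were below 0, 1 of them without overlap (Rpia, -0.35, adjusted p = 0.161). G6pdx, its entry enzyme, had -0.35 (adjusted p = 0.195) with overlap, and without G2A 3 there were 4 of 8 called lower.

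**Figure D3:**
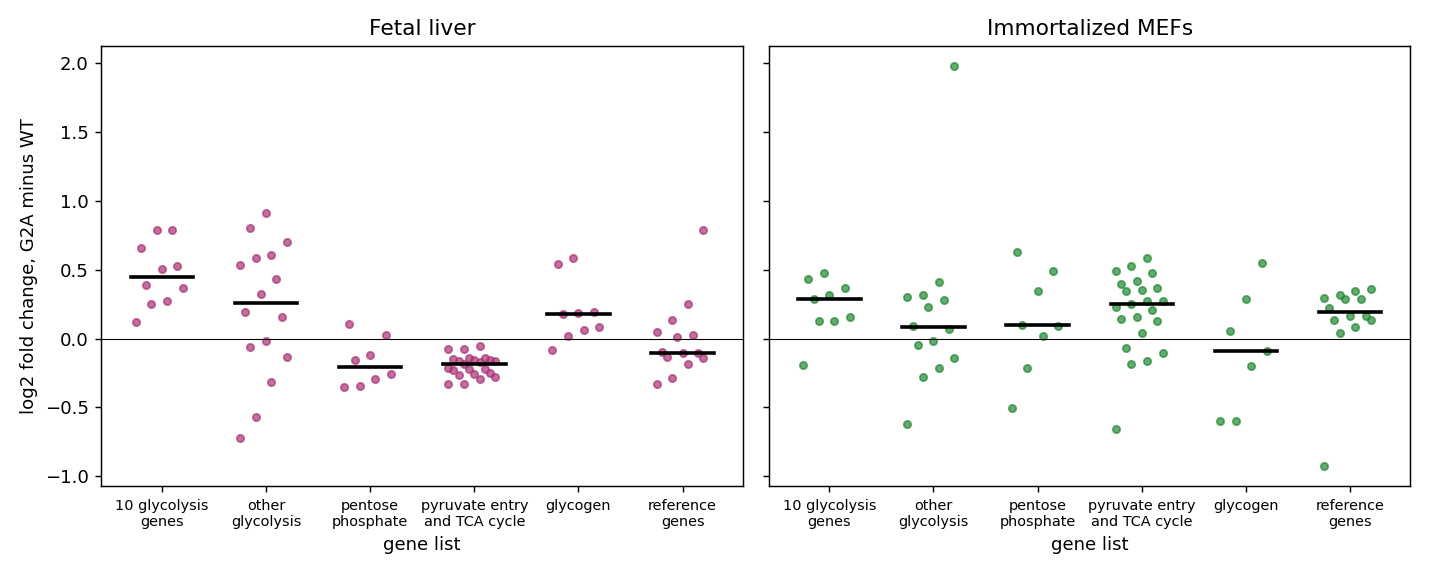
Log2 fold change (G2A minus WT) of each tested gene in 6 lists, in liver (left) and MEFs (right), with a black line at the list median. In liver the 10 glycolysis genes lie above 0 and the 23 genes of pyruvate entry and the TCA cycle below 0, and in MEFs 18 of those 23 lie above 0.

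Of 14 genes for HIF subunits, the enzymes that control them, Myc and related factors, 10 were above 0 in liver. Of the 14, 3 were higher without overlap, against 11.8% of all genes. Egln3, an oxygen-dependent hydroxylase that marks HIF for degradation, was at 8.15, 7.37 and 6.15 FPKM in WT and 19.4, 16.5 and 10.2 in G2A (0.96, adjusted p = 0.115). Egln1, a related hydroxylase, was at 19.3, 21.1 and 18.3 against 31.4, 32.9 and 22.0 (0.51, adjusted p = 0.149). Hif1a itself, which is regulated mainly as a protein, had means of 27.4 and 29.7 FPKM with overlap (adjusted p = 0.463). Without G2A 3, 5 of the 14 were called higher and 1 lower, against 12.4% and 12.0% of all genes.

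Gapdh and Pgk1 are also often used as reference genes. Of 14 common reference genes, they were the 2 that were higher in G2A liver without overlap, against 11.8% of all genes. Another 4 were lower without overlap, against 15.7%. Ppia, cyclophilin A, was at 3222, 3157 and 3110.5 FPKM in WT and 2549, 2632 and 2594 in G2A (-0.29, adjusted p = 0.109), the direction opposite to Gapdh. Actb had means of 1273 and 1316 FPKM, with overlap.

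Markers of other cell types also differed between the livers. Of all genes tested in liver, 11.8% were higher and 15.7% lower without overlap. The 9 mesenchyme markers summed to between 619 and 848 FPKM in WT and between 1159 and 2276 in G2A. Of the 9, 5 were higher without overlap, and their median log2 fold change was 1.12. The 5 epithelium markers summed to 142 to 161 in WT and 163 to 406 in G2A (4 of 5 without overlap), and the 7 endothelium markers to 98.7 to 110.5 and 113 to 123 (3 of 7). The 5 neural markers were all below 0, 3 of them lower without overlap, with a median of -1.02 and sums of 15.6 to 32.6 in WT and 1.76 to 13.3 in G2A. Further, 10 of 11 erythroid markers were below 0, with sums of 2440 to 3428 and 1676 to 3133. Of the 11, 3 were lower without overlap and 0 higher. Without G2A 3, 9 of the 11 were called lower, against 12.0% of all genes. The 3 globins of primitive red cells summed to 14637 to 26761 in WT and 22747 to 67999 in G2A. The sums of the 10 hepatoblast markers overlapped (11132 to 13790.2 and 11059 to 15884). Of the 10 hepatoblast markers, 2 were higher without overlap and 0 lower. Without G2A 3, 0 of them were called higher and 4 lower, against 12.4% and 12.0% of all genes. No marker of these lists was at 0 in all livers. In G2A 3 the mesenchyme sum (1159) was the lowest of the G2A livers but above every WT liver. The epithelium and endothelium sums of G2A 3 (163 and 113) were also above every WT liver, and its erythroid sum (3133) lay within the WT range. The median deviation of the glycolysis members was 0.40 in G2A 3, against 0.43 and 0.46 in G2A 1 and G2A 2. The part of cell composition in the values of the members was not tested.

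In MEFs the members did not separate the groups. All 9 testable members overlapped between WT and G2A, where 36.8% of 13241 genes did not overlap in either direction. No member was called by limma (adjusted p under 0.05), as for 0% of all genes, and none of the 9 had an unadjusted p under 0.05, against 1903 of all genes. On the whole reads recovered from the table (100% of values whole within 0.01), edgeR also called 0 genes, and DESeq2 called 1028 genes, of which 0 were members. The log2 fold change on log2(normalized reads + 1) was above 0 for 8 of 9 members, and the median of 0.29 compared with 0.01 over all genes, whose 10th and 90th percentiles were -0.65 and 0.70.

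The spread within WT was wide, with WT 3 at the low end. Ldha had 40355, 46091 and 17209.6 normalized reads in WT 1, WT 2 and WT 3 and 34634 and 34838 in G2A. Tpi1 had 21427, 22486 and 10969 against 19353 and 18697. Pgk1 had 24310.3, 26639 and 12979 against 24195 and 25489. In each of these genes WT 3 was far below the other 4 libraries. Aldoa, at 24078, 26364 and 14688 in WT and 23629.6 and 23308 in G2A, also had WT 3 as the lowest library. Pfkl had 6773, 7063 and 3287 in WT and 7552 and 6999.6 in G2A, and Pgam1 had 14232, 17914 and 9056 against 19079 and 17643. WT 3 was the lowest of the 5 libraries for 8 of 9 members, as it was for 28.2% of all genes, and it was under 0.6 of the mean of WT 1 and WT 2 for those 8. The exception was Hk2, where WT 3 was the highest WT library (862, 1116 and 1339 normalized reads in WT, 1607 and 1222 in G2A).

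Leaving out WT 3 changed the sign of the median to -0.035, with 4 of 9 members above 0, 1 (Hk2) higher without overlap and 4 lower, against 34.6% and 33.1% of all genes. Slc2a1, which had 7136, 6559 and 3359 normalized reads in WT and 5185 and 4322 in G2A, was then called lower, at a log2 fold change of -0.53 (SE 0.12, adjusted p = 0.0281) against -0.19 (SE 0.35, adjusted p = 0.821) with it. This was 1 of 9 members, where 23.2% of all genes were called in either direction. Ldha moved from 0.13 (SE 0.45) to -0.31 (SE 0.11), Tpi1 from 0.13 to -0.21, Aldoa from 0.16 to -0.10 and Pgk1 from 0.29 to -0.035, none of them called. Gapdh, at 4544, 5917 and 2886 normalized reads in WT and 5635 and 4983 in G2A, moved from 0.31 to 0.03. Without WT 3, the WT libraries left had Ddx3y and almost no Xist, and the G2A libraries had Xist and almost no Ddx3y. Genotype and the sex of the cells cannot be told apart in those fits. Why WT 3 stood apart was not tested.

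Eno1 was listed at 0 in all 5 MEF libraries, while its near-identical copy Eno1b was at 2037, 2393 and 1017 normalized reads in WT and 1834 and 1992 in G2A. WT 3 was again the lowest. Other members share sequence with copies elsewhere in the genome. Of the 50-base stretches of their transcripts, the length to which reads were trimmed, 92.9% of those of Pgk1, 91.9% of Pgam1, 78.7% of Gapdh and 49.5% of Eno1 recur exactly at another place in NCBIM37. The shares were 23.8% for Ldha, 21.5% for Tpi1, 10.3% for Aldoa, 0.38% for Pfkl and 0 for Slc2a1 and Hk2. How the authors' counting treated such reads is not given in the sources used here, so the levels of these genes, which could be split with their copies, are uncertain. Per kilobase of exon in NCBIM37, Gapdh had 2017, 2626 and 1281 normalized reads in WT MEFs and 2501 and 2212 in G2A, below Pgk1 at 10833, 11871 and 5784 and 10782 and 11359, whereas in liver Gapdh was above Pgk1 in FPKM in every library.

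The isozymes and gap enzymes in MEFs showed few separations. Pkm had 118888, 131596 and 68210.4 normalized reads in WT and 139578 and 131719 in G2A, so that the groups touched without overlap (log2 fold change 0.41, adjusted p = 0.614). Gpi1 overlapped (10464, 12700.0 and 7563 against 12012 and 12252), as did Hk1 (8841, 9535 and 4447 against 8069 and 7287). Pfkm was higher without overlap (2174, 1994 and 1869 against 2365 and 2351; 0.23, adjusted p = 0.411), and so was Pgm2 (0.30, adjusted p = 0.421). Ldhb had 71.1 and 42.8 normalized reads in WT 1 and WT 2, and 667 in WT 3, 549 and 465 in the G2A libraries. Slc2a3 had 49.5, 48.0 and 371 in WT and 786 and 433 in G2A, and Egln3 had 6.18, 7.31 and 98.7 against 168 and 162. Slc2a3 and Egln3 were both higher without overlap, the direction found in liver. Their log2 fold changes were 2.59 (SE 0.99, adjusted p = 0.337) and 3.19 (SE 1.25, adjusted p = 0.344). For Ldhb, Slc2a3 and Egln3, WT 3 was nearer to the G2A libraries than to WT 1 and WT 2. Pfkp, Aldoc, Pgam2, Eno2 and Eno3 overlapped between the groups, with log2 fold changes from -0.62 (Eno2) to 0.07 (Eno3). Of 14 other glycolysis genes tested, 8 were above 0 and 4 were higher without overlap, against 18.9% of all genes.

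Of the other lists in MEFs, most genes of pyruvate entry and the TCA cycle had the sign opposite to liver. Some genes of the remaining lists had the direction found in liver. Of the 23 genes of pyruvate entry and the TCA cycle, 18 were above 0 and 14 higher without overlap, against 18.9% of all genes. Without WT 3 these counts were 16 and 14, with 6 lower without overlap. Of all genes, 34.6% were then higher without overlap and 33.1% lower. By calls 6 were then higher and 2 lower, against 11.7% and 11.5% of all genes. Mdh2 had 10691, 12875 and 11447 normalized reads in WT and 17025 and 16525 in G2A (0.53, adjusted p = 0.269), and Idh3b, of the isocitrate dehydrogenase, 3943, 4284 and 4144 against 5258 and 5355 (0.36, adjusted p = 0.279). Slc16a3 was at 127, 96.0 and 60.1 against 229 and 239 (1.37, adjusted p = 0.289), the direction found in liver. In the pentose phosphate path H6pd was lower without overlap (-0.51, adjusted p = 0.271) and G6pdx higher (0.63, adjusted p = 0.363). Among the regulators Pdp1, a phosphatase that activates pyruvate dehydrogenase, had -1.10 (adjusted p = 0.304) and Pdk3, a kinase that inhibits it, 0.29 (adjusted p = 0.313). Among the glycogen genes Ugp2 had -0.60, lower without overlap, and Gbe1 0.55, higher without overlap as in liver (adjusted p = 0.315 and 0.331). Arnt, the partner of HIF, had -0.37 (adjusted p = 0.303). G6pc3 had 0.32 (adjusted p = 0.348), and Pck2 had -0.19 with overlap (adjusted p = 0.646). Of the reference genes Gusb had 0.28 and Ppia 0.35 (adjusted p = 0.310 and 0.407). Among all 14 reference genes, which include Gapdh and Pgk1, 13 were above 0 in MEFs, with a median of 0.19. Of the 14, 6 were higher without overlap and 1 lower, against 18.9% and 18.0% of all genes. The mesenchyme markers summed to 531020 to 965154 normalized reads in WT MEFs and 367295 to 388176 in G2A, and their part in the values was not tested.

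**Figure D4:**
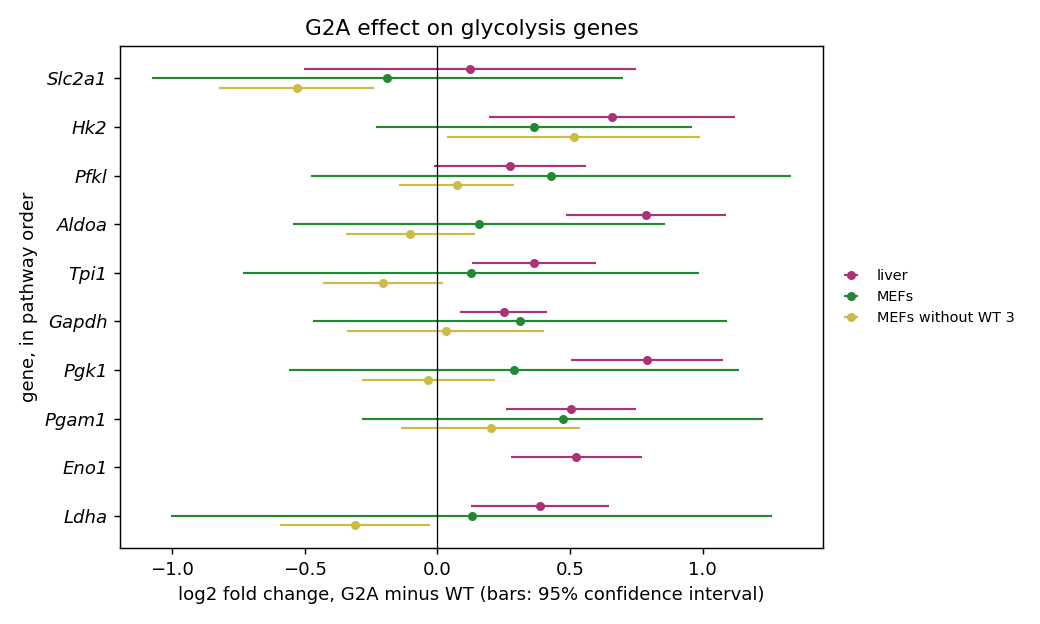
Log2 fold change (G2A minus WT) of each gene, as a point with its 95% confidence interval, in liver (purple), in MEFs (green) and in MEFs without WT 3 (yellow). The liver intervals exclude 0 for 8 genes, the MEF intervals with all 5 libraries include 0 for all 9 genes, and Eno1 has no MEF value.

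The G2A difference in liver was then compared with that in MEFs, gene by gene, for the 9 members tested in both. It was larger in liver for 7 of 9, with a median difference of 0.26 on the log2 scale. No member was called (adjusted p under 0.05, where 2.21% of 10818 genes were called in either direction), and 0 of 9 had an unadjusted p under 0.05. Aldoa had the widest gap, at 0.79 in liver and 0.16 in MEFs, a difference of 0.63 (95% interval -0.08 to 1.34, adjusted p = 0.256). Pgk1 followed at 0.50 (95% interval -0.35 to 1.35, adjusted p = 0.429), while Pgam1 differed by 0.03 and Pfkl and Gapdh were larger in MEFs. Without MEF WT 3, 4 members were called, when 30.1% of all genes were, and all 4 were larger in liver: Aldoa by 0.89 (adjusted p = 0.00223), Pgk1 by 0.83 (0.00296), Ldha by 0.70 (0.00733) and Tpi1 by 0.57 (0.00849). These 4 calls rest on leaving out that library, after which the MEF groups also differ in Xist and Ddx3y.

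The genes whose pattern over libraries was nearest to the mean pattern of the members were, over the 6 livers, Trappc6a, Hs3st3b1, Foxn3, A130040M12Rik and Arl5c. Their root mean square differences from it, on the centred log2 scale, were 0.03 for Trappc6a, 0.05 for Hs3st3b1 and Foxn3 and 0.06 for the other two. Over the 5 MEF libraries the nearest were Cradd, Aars2, Csk, Fah and Cisd1, at 0.03 to 0.04. No gene was on both lists.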

How the data were processed

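Per the labels' protocols, Trizol RNA was sequenced by BGI, and reads cut to 50 bp were aligned by TopHat 2.1.1 against mm9. Cufflinks 2.2.1 and mm10 are also named, per the submitters' processing notes. The authors' deposited liver values carry no unit in the file header and were taken as FPKM, since they are not whole and sum to between 792987 and 840762 per library; the reads behind them are unknown. The deposited MEF values are a normalized signal: whole reads per gene over 1 size factor per library (0.958 to 1.06), as the values show; no header states it. Of 12 labelled samples 11 libraries were used, since G2A MEF 3 was not analysed here.

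Values were tested within each table as log2(value + 1) by limma's moderated test (version 3.58.1, R 4.3.3; trended variance, no covariates), with Benjamini-Hochberg adjustment over all genes passing a filter: FPKM of at least 1 in at least 3 liver libraries, or at least 10 normalized reads in at least 2 MEF libraries. The filter uses all libraries, also where a library is left out. The adjusted threshold was 0.05. For liver against MEFs, the MEF log2 fold change was subtracted from that in liver and divided by the pooled error of both, on Satterthwaite's degrees of freedom. Fold changes on this scale understate those of low genes. edgeR 4.0.16 (quasi-likelihood) and DESeq2 1.42.0 were run on the recovered MEF reads. The limma test was first tried on simulated data with known changes. Gene positions are from GENCODE for NCBIM37 (mm9), promoter windows from RefSeq.

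All 10 members are named. From each other list the 2 genes with the smallest p per table are named, with the members' isozymes, Gpi1, Pkm, Psmc1 and Xist; 1 gene under this rule is not reported here. Hif1a, Actb, Pklr, Eno1b and Ddx3y were added after their values were seen, for the comparisons in which they stand. The comparison of Slc2a3 and Egln3 with MEF WT 3 was also added after their values were seen. Likeness is the smallest root mean square difference from the members' mean centred log2 level, 5 genes per table. The members, lists and tests were chosen with earlier results of these data known, and leaving G2A liver 3 and WT MEF 3 out of the list counts was chosen after seeing the data. The alternatives were another pseudocount, other filters, rescaling, quantile normalization, library weights, no variance trend, a replicate block, removal of small RNA genes, Xist as a covariate, count tests and leaving out each library.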

Additional observations from a re-analysis of the deposited data

How the results depend on the processing

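In liver, 0 of 10 members passed the adjusted threshold under every alternative run except 2. Library weights (limma's estimated weights, 0.176 for G2A 3 and 6.22 for G2A 1) called 9, as they called 46.8% of all genes. Leaving out 1 library each gave 0 to 5, the 5 without G2A 3, when 24.4% of all genes were called. The median log2 fold change moved beyond the replicate spread only with quantile normalization, to 0.56. Slc2a1 changed sign with library weights (-0.17) and ran from -0.14 to 0.33 when libraries were left out. In MEFs, library weights (0.120 for WT 3) called 3 of 9 members, where they called 46.3% of all genes. Leaving out 1 WT library each gave 0 to 1, the 1 without WT 3, when 23.2% of all genes were called. The weights turned Aldoa to -0.032, Tpi1 to -0.15 and Ldha to -0.20. Leaving out libraries gave -0.53 to 0.012 for Slc2a1, -0.10 to 0.32 for Aldoa, -0.21 to 0.31 for Tpi1, -0.035 to 0.48 for Pgk1 and -0.31 to 0.40 for Ldha, with the low end in each without WT 3. Members whose difference between liver and MEFs was called numbered 4 with weights, where 56.9% of all genes were called. With 1 liver library or 1 WT MEF library left out they numbered 0 to 4, the 4 without MEF WT 3 (30.1% of all genes). Differences that changed sign were Pfkl (0.20 with weights, -0.35 to 0.20 with libraries left out), Gapdh (0.020 with quantile normalization, 0.047 with weights, -0.30 to 0.22 with libraries left out), Pgam1 (-0.19 to 0.30) and Ldha (-0.012 to 0.70). Replicate numbers were not taken as pairs: the labels name 3 littermate pairs without saying which, and the deviations of same-numbered livers correlated at 0.18, -0.10 and 0.10. A replicate block left 0 members called in liver. In MEFs, where the block removes WT 3 because it has no partner, it called 1 member, against 28.6% of all genes. Aldoa was then at -0.10, Tpi1 at -0.21, Pgk1 at -0.035 and Ldha at -0.31. With the block, 5 differences between liver and MEFs were called (34.4% of all genes), with Pfkl at 0.20 and Gapdh at 0.22. Gene by gene, 143 liver values kept their direction and side of the threshold, 14 passed it and 3 changed sign; in MEFs these counts were 118, 5 and 12. The unknown depth of the liver libraries gives no counting error there. Over all genes tested, calls in either direction numbered 3 in liver, 6057 with weights and 3152 without G2A 3; in MEFs they numbered 0, 6124 with weights, 3784 with the block, 3075 without WT 3 and 1028 with DESeq2. Called differences between liver and MEFs numbered 239, and from 2 (without a G2A MEF library) to 6151 (weights) over the alternatives. Why these settings changed the counts was not tested. A single G2A MEF library left after removal of the other was assumed to vary like the WT libraries.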
